A study of Mus musculus with 12 samples.

Results

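Chemokines are small secreted proteins that draw leukocytes along a gradient through G-protein-coupled receptors, and eosinophils are known both to answer to them and to make them. The 10 ligand genes Ccl6, Ccl9, Ccl3, Ccl4, Ccl5, Ccl17, Ccl22, Ccl24, Cxcl2 and Cxcl10 were followed in mouse eosinophils. They were chosen by symbol, through the Ensembl gene identifiers of the count table, and all 10 were found among its 53801 genes. Ccl6 and Ccl9 are rodent CC chemokines that act mainly through the receptor Ccr1. Ccl3, Ccl4 and Ccl5 are classical inflammatory CC chemokines, Ccl17 and Ccl22 attract Ccr4-bearing T cells, and Ccl24 is an eotaxin, a ligand of the eosinophil receptor Ccr3. Cxcl2 attracts neutrophils through Cxcr2, and Cxcl10 is an interferon-induced ligand of Cxcr3.

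Messenger RNA was sequenced from eosinophils of bone marrow and of blood, with 12 libraries in 4 groups of 3. Knockout animals were Atg5 flox/flox eoCre Il5tg and controls were eoCre Il5tg, so that the autophagy gene Atg5 was floxed in the knockout only, while both genotypes carried the Cre recombinase and the interleukin-5 transgene. The Cre is driven from the eosinophil peroxidase locus and is therefore active late in the eosinophil lineage, and the transgene, driven by a T cell promoter, keeps eosinophils abundant in every animal, so no group represents eosinophils at normal interleukin-5 levels. Each genotype was represented by 3 mice. Their age and whether a blood and a marrow library with the same number came from the same animal were not given in the sources used here. Cells were enriched by antibody depletion of other leukocytes. Blood was first spun over a density medium and its red cells were lysed with water, so tissue and isolation procedure cannot be told apart.

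Total counts ranged from 18885052 to 30270166 per library. The libraries held eosinophil transcripts throughout: the 10 eosinophil marker genes together took 7.82% to 9.99% of counts in bone marrow and 1.61% to 3.80% in blood. In each genotype 2 of the 10 were called higher in blood and 7 lower by the test used below. Of all genes, 16.2% were called higher and 18% lower in the control, and 23.5% and 24.1% in the knockout. The study judged purity by flow cytometry and microscopy of the isolated cells, which these shares do not measure. Neutrophil markers took 2.22% to 3.17% and 1.18% to 2.10%, and in knockout blood 1 they took more counts than the eosinophil markers (2.10% against 1.61%). B cell markers took 0.107% of counts in control blood 1 and 0.215% in Atg5-knockout blood 1, against at most 0.0384% in the other 4 blood libraries, and red cell markers took 14.6% in control blood 1, so both of these libraries stood apart. Atg5 itself was counted at 31.0 to 34.5 CPM (counts scaled to a common library size with normalization factors, as in all CPM values here) in Atg5-knockout bone marrow and at 41.4 to 44.8 in control bone marrow. In blood it was at 36.0 to 52.2 in the knockout and at 40.0 to 58.9 in the control. These counts sum all exons and so do not measure the floxed part on its own.

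On chromosome 11, 5 of the genes lie side by side in the order Ccl5, Ccl9, Ccl6, Ccl3, Ccl4, within 138906 bases (GRCm38, the build of the table's coordinates, as are all gene positions here). Ccl5 (ENSMUSG00000035042) occupies chr11:83525778-83530518, Ccl9 (ENSMUSG00000019122) chr11:83572919-83578636, Ccl6 (ENSMUSG00000018927) chr11:83587882-83593087 and Ccl3 (ENSMUSG00000000982) chr11:83647844-83649355, all on the minus strand. Ccl4 (ENSMUSG00000018930) follows at chr11:83662584-83664683 on the plus strand. Ccl22 (ENSMUSG00000031779) at chr8:94745590-94751699 and Ccl17 (ENSMUSG00000031780) at chr8:94810453-94812036 form a second pair on the plus strand of chromosome 8, separated by 58753 bases. The remaining members are on chromosome 5, with Cxcl2 (ENSMUSG00000058427) at chr5:90903871-90905938 on the plus strand, Cxcl10 (ENSMUSG00000034855) at chr5:92346638-92348889 on the minus strand, and Ccl24 (ENSMUSG00000004814) at chr5:135569937-135573049 on the minus strand.

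The counting named no strand option although the libraries were made with a strand-preserving kit, so reads of a gene and of one that overlaps it on the other strand were not separated. E230016K23Rik overlaps Ccl6 on the opposite strand, shares 0 exon bases with it and held 2808 counts over all libraries. Art3 overlaps Cxcl10, shares 133 exon bases and held 256 counts. Among related genes, the longest identical run of transcript sequence was 25 bases between Ccl6 and Ccl9, 9 between Ccl3 and Ccl4 and 10 between Ccl17 and Ccl22. Cxcl2 and Cxcl3 share a run of 157 bases, and a read that lies wholly in it cannot be given to one of them, so the counts of both are uncertain to that extent.

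The stretch of 250 bases before the transcription start was read from RefSeq (GRCm38.p6) for the 7 members whose windows were given, which leaves out Ccl4, Ccl5 and Ccl24. Shown here are the windows of the pair at the extremes of the data, Ccl6 as the most abundant ligand and Cxcl2 as the one with the largest difference between tissues, together with their neighbours in the family, Ccl9 and Cxcl10. Capitals mark matches to the NF-kB consensus or to TATAAA on either strand. The windows are chr11:83593088-83593337, minus strand (Ccl6), chr11:83578637-83578886, minus strand (Ccl9), chr5:90903649-90903898, plus strand (Cxcl2) and chr5:92348890-92349139, minus strand (Cxcl10), each written 5′ to 3′ towards the start.
Ccl6: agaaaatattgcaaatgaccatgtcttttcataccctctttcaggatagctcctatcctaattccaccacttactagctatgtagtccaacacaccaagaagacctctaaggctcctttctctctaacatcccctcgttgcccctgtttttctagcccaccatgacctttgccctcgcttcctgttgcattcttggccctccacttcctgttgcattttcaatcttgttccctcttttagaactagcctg
Ccl9: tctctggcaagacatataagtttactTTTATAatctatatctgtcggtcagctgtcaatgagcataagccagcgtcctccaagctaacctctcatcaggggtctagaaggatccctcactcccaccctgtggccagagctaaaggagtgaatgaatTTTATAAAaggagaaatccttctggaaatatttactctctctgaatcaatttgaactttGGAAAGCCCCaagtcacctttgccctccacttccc
Cxcl2: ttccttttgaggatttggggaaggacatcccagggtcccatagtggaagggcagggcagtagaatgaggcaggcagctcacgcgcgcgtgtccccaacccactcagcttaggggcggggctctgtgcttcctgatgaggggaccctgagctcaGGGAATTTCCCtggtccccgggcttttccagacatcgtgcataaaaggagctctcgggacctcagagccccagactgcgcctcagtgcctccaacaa
Cxcl10: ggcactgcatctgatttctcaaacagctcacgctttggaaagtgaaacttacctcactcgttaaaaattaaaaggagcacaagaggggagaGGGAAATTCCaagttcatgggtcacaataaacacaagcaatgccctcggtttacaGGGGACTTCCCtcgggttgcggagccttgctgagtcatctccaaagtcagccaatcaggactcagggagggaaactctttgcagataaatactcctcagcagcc

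The Cxcl2 window held a pair of overlapping NF-kB matches, 97 and 96 bases before the start, within one run of letters. The Cxcl10 window held 3, at 159, 104 and 103 bases, the last 2 overlapping, and also matches to AGATAA at 22 and to TGACTCA at 74 bases. In the Ccl9 window there was 1 NF-kB match, 35 bases before the start, and TATAAA matches at 224, 94 and 92 bases. The Ccl6 window had no match to any of the 5 motifs searched, on either strand, and neither had those of Ccl3 and Ccl22. Ccl17 had TTCNNNGAA at 99 and AGATAA at 109 bases. Over all 32851 windows of this length, 7.25% held an NF-kB match, 12.4% TATAAA, 7.02% TTCNNNGAA, 9.99% AGATAA and 4.46% TGACTCA. A match describes the letters only.

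Ccl6 was among the most abundant transcripts of these cells. Per transcript length (TPM, counts divided by exon length and scaled to equal library totals), it ranked between 2 and 12 among all genes in every library, and it took 0.670% to 1.99% of all counts. In CPM, control bone marrow held 7626, 7674 and 8411, and Atg5-knockout bone marrow 6249, 6592 and 7865. Blood stood higher, with 12268, 18708 and 23091 in the control and 12483, 20872 and 20033 in the knockout. The 6 blood libraries all exceeded the 6 marrow libraries, and replicate 1 was the lowest of both blood groups.

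Set against the other ligands, Ccl6 supplied 89.2% to 96.4% of the TPM of all chemokine ligand genes listed (the 10 members and 28 others). Ccl9, its close relative, was second in mean TPM in all 4 groups, at 577 ± 133 (SD, n = 3) in control bone marrow, 313 ± 29.5 in Atg5-knockout bone marrow, 590.3 ± 272 in control blood and 792 ± 210 in Atg5-knockout blood, and ranked between 154 and 432 among all genes. Below them the order depended on the tissue. In bone marrow, Ccl3 followed at 18.6 ± 3.68 TPM in the control and 17.8 ± 1.61 in the knockout, and Ccl4, Ccl17, Ccl5, Cxcl10, Ccl24, Cxcl2 and Ccl22 had mean levels from 4.78 down to 0 TPM. The ranges of Ccl4 and Ccl17 overlapped there in both genotypes. In blood, Ccl5 and Cxcl2 stood next to Ccl9, with 334 ± 130.4 and 128 ± 124 TPM in the control and with 377 ± 52.7 and 486 ± 199 in the knockout, and their ranges overlapped in both genotypes, in the control only just. Ccl3 and Ccl4 came next, and Ccl17, Cxcl10, Ccl24 and Ccl22 had means from 6.80 down to 0.0650 TPM.

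**Figure D1:**
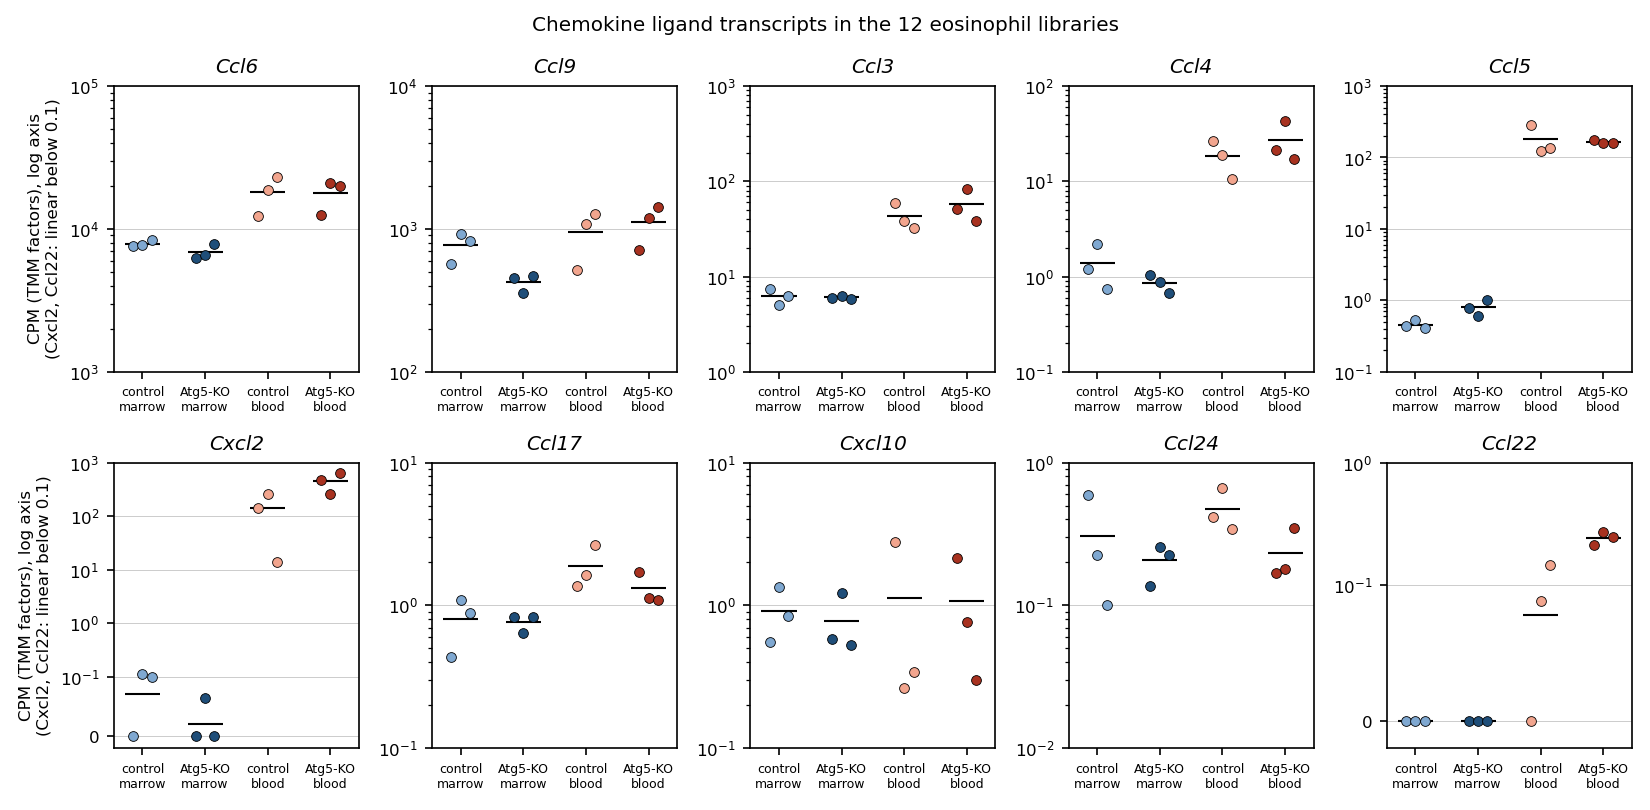
CPM (log axis; for Cxcl2 and Ccl22 linear below 0.1, so that libraries at 0 can be drawn) of the 10 chemokine ligands in each of the 12 libraries, 1 panel per gene and 1 colour per group. Points are libraries and horizontal lines are group means. For Ccl6, Ccl3, Ccl4, Ccl5 and Cxcl2, every blood library lies above every bone marrow library, whereas Ccl9, Cxcl10 and Ccl24 overlap between the tissues.

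The largest differences were between blood and bone marrow. In control mice, 5 of the 8 members that passed the filter on low counts rose in blood at an adjusted p under 0.05 (Ccl6, Ccl3, Ccl4, Ccl5 and Cxcl2) and 0 fell, against 34.2% of all 13669 genes called in either direction, 16.2% called higher and 18% lower. In Atg5-knockout mice, 6 of 8 rose (these 5 and Ccl9) and 0 fell, against 47.6% of 13853 genes called, 23.5% called higher and 24.1% lower. Genes that differ between the tissues were thus common throughout the table. Cxcl2, with next to no marrow counts, passed the filter through blood alone, so it could pass only as a gene that differs. Without it, 4 of 7 rose in the control and 5 of 7 in the knockout, and the median log2 fold change was 1.24 and 1.45, beside -0.0029 and -0.010 over all genes. Blood and marrow groups did not overlap, with blood higher, for 5 of these 7 in the control and 6 of these 7 in the knockout, against 22.3% and 25.9% of all genes. Including genes lower in blood (27.4% in the control and 34.2% in the knockout), 49.7% and 60.1% of all genes did not overlap. The members that did not pass the filter were Ccl22 and Ccl24. In bulk RNA, fewer cells of a type and less RNA per cell cannot be told apart, here or below.

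Ccl6 was higher in blood by a log2 fold change of 1.20 (SE 0.24, adjusted p = 0.00601, edgeR's quasi-likelihood test with Benjamini-Hochberg adjustment, as for all adjusted p-values here unless another tool is named), or 2.30-fold, in control mice. In the knockout the log2 fold change was 1.43 (SE 0.22, adjusted p = 0.00078), or 2.69-fold. Ccl9 passed in the knockout only, and that difference between the genotypes was not itself called. Its CPM values in control bone marrow, 565, 919 and 827, overlapped those of control blood, 516, 1077 and 1262, and the log2 fold change of 0.31 (SE 0.32) gave an adjusted p of 0.489. In the knockout, bone marrow held 454, 354 and 466 CPM and blood 718, 1201 and 1419, with no overlap and a log2 fold change of 1.45 (SE 0.24, adjusted p = 0.00131). Without control blood 1, in which Ccl9 was lowest of all blood libraries, the control difference was 0.60 and was called, with an adjusted p of 0.0347.

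Ccl3 and Ccl4, which are made by many activated leukocytes, were low in bone marrow and higher in blood. Ccl3 counted 7.41, 5.06 and 6.22 CPM in control bone marrow and 5.99, 6.26 and 5.85 in knockout bone marrow, while blood held 59.6, 38.5 and 32.5 in the control and 51.5, 83.7 and 38.7 in the knockout. The 6 marrow libraries thus lay within a narrow band and all blood libraries lay above it. The fold was 7.08 in control mice (log2 2.82, SE 0.28, adjusted p = 0.000158) and, in the knockout, the log2 fold change was 3.32 (SE 0.27, adjusted p = 2.59e-05).

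For Ccl4, marrow gave 1.21, 2.21 and 0.744 CPM in the control and 1.03, 0.871 and 0.675 in the knockout. Blood gave 26.5, 18.7 and 10.6 in the control and 21.4, 42.9 and 17.2 in the knockout. Its fold between tissues, 13.5 in control mice (log2 3.76, SE 0.49, adjusted p = 0.000712) and 32.7 in the knockout (log2 5.03, SE 0.40, adjusted p = 2.31e-05), had a larger estimate than that of Ccl3, and the ratio of Ccl3 to Ccl4 in TPM ran from 1.68 to 2.64 in the blood libraries and from 1.97 to 7.47 in those from marrow. The marrow counts of Ccl4 were small, 120 in the 3 control and 75 in the 3 knockout libraries together. Both genes were highest in control blood 1 among the controls and in knockout blood 2 among the knockouts. Gzma, a transcript of T and natural killer cells, was also highest there, at 407 and 336 CPM. The T cell transcript Cd3e was highest in control blood 1 and knockout blood 1, at 11.8 and 19.6 CPM. The part of T and natural killer cells in the Ccl3 and Ccl4 differences was not tested.

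Ccl5, known from T and natural killer (NK) cells and also made by other leukocytes, showed a larger difference. Control bone marrow held 0.434, 0.525 and 0.406 CPM and knockout bone marrow 0.792, 0.613 and 1.01. In blood the values were 283, 121 and 134 in the control and 175, 157 and 160 in the knockout, so the tissues were far apart in both genotypes. The log2 fold change was 8.64 (SE 0.47, adjusted p = 8.82e-06) in control mice and 7.74 (SE 0.20, adjusted p = 3.18e-07) in knockout mice. As ratios of summed counts these are 379 (95% counting interval 278 to 530.3) and 206 (163 to 266), and such intervals cover counting error only.

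Several T and NK cell transcripts were also higher in blood. The 11 T and NK cell markers together took 0.0274% to 0.0631% of counts in blood and 0.00943% to 0.0132% in bone marrow. Of these, 6 passed the filter in control mice, where 4 rose and 0 fell, beside 16.2% and 18% of all genes. In the knockout 10 passed, 9 rose and 0 fell, beside 23.5% and 24.1%. Some, such as Ncr1, passed the filter through blood alone. Nkg7, also on this list, overlapped between the tissues, at 70.8 to 128 CPM in blood and 78.6 to 111 in marrow. In control mice Cd4, Cd8a, Cd8b1 and Trac overlapped as well, as did Cd4 in the knockout. Gzma, which encodes granzyme A, was at 407, 248 and 207 CPM in control blood and at 248, 336 and 304 in knockout blood, against 1.27 to 2.70 in the marrow libraries. Ncr1, the NK receptor NKp46, was at 26.6, 10.1 and 4.01 CPM in control blood and at 33.8, 48.5 and 29.0 in knockout blood, against at most 0.613 in marrow. Cd3e, which defines T cells, was at 0 in all 6 marrow libraries and at 11.8, 0.176 and 0.440 CPM in control blood and 19.6, 1.53 and 0.846 in knockout blood. Cd3d, whose promoter drives the transgene, was at 30.01, 9.83 and 12.1 CPM in control blood and 52.7, 11.9 and 12.99 in knockout blood, against 3.00 to 4.54 in marrow. Without control blood 1 the log2 fold change of Ccl5 in control mice was 8.13 (adjusted p = 5.67e-08), and without knockout blood 1 that in knockout mice was 7.69. The part of T and NK cells in the Ccl5 difference was not tested.

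**Figure D2:**
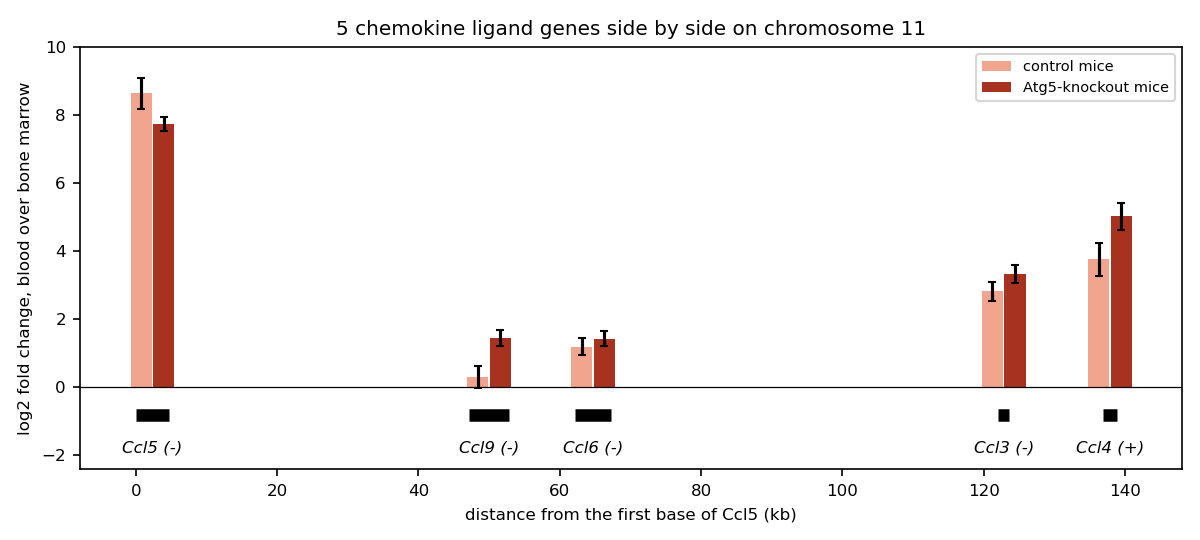
The 5 members on chromosome 11 drawn to scale by distance from the first base of Ccl5 (kb; black bars are genes, with strand), with the log2 fold change of blood over bone marrow ± standard error above each gene (bars, 3 libraries per group). Ccl5 at one end reaches 8.64 and 7.74, Ccl3 and Ccl4 at the other 2.82 to 5.03, and Ccl9 and Ccl6 between them 0.31 to 1.45.

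The 5 chromosome 11 genes, although neighbours, did not share a size of change. The map of this cluster shows the 2 most abundant genes, Ccl9 and Ccl6, in the middle with the smallest folds, and the low-level marrow genes Ccl5, Ccl3 and Ccl4 at the ends with larger ones. Whether folds differed between neighbouring genes was not tested.

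Cxcl2 went from next to no reads in marrow to a well-expressed gene in blood. It had 0, 3 and 3 counts in control bone marrow and 0, 2 and 0 in knockout bone marrow. Blood libraries held 2370, 5975 and 286 counts in the control, or 140.3, 263 and 13.99 CPM, and 11374, 5760 and 12623 in the knockout, or 478, 259 and 628 CPM. Blood over marrow, as a ratio of summed counts, was 2121 in control mice (95% counting interval 974 to 5781) and 19503 in the knockout (5398 to 161048), where 2 marrow counts set the interval. The fitted log2 fold changes of 10.9 (SE 1.33, adjusted p = 0.000493) and 14.1 (SE 0.62, adjusted p = 1.09e-06) depend on the prior count added to such low groups. Neutrophil markers took 2.22% to 3.17% of counts in marrow and 1.18% to 2.10% in blood. In blood libraries 1, 2 and 3 they were at 1.66%, 1.62% and 1.28% in the control and 2.10%, 1.33% and 1.18% in the knockout. Of these 10 markers, 0 rose and 4 fell in control blood, beside 16.2% and 18% of all genes. In knockout blood 1 rose and 6 fell, beside 23.5% and 24.1%. The summed counts of monocyte and macrophage markers overlapped between the tissues, at 0.525% to 0.617% in marrow and 0.428% to 0.686% in blood. Of these 11 markers, 5 rose and 1 fell in control blood, beside 16.2% and 18% of all genes. In knockout blood 4 rose and 3 fell, beside 23.5% and 24.1% of all genes. The part of these cells in the Cxcl2 difference was not tested.

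The remaining members were near the limit of detection. Ccl17 was at 0.434, 1.09 and 0.879 CPM in control bone marrow, 0.826, 0.645 and 0.825 in knockout bone marrow, 1.36, 1.63 and 2.64 in control blood and 1.72, 1.12 and 1.09 in knockout blood. Within each genotype the tissues did not overlap, but the log2 fold changes of 1.24 (SE 0.51, adjusted p = 0.0881) and 0.84 (SE 0.42, adjusted p = 0.124) did not pass, and that in control mice passed without control blood 1 (1.42, adjusted p = 0.0421). Ccl22, its partner on chromosome 8, had 0 counts in all 6 marrow libraries, 0, 2 and 3 in control blood and 5, 6 and 5 in knockout blood. With marrow set to a floor of 3 counts over a group, the ratio of blood to marrow for Ccl22 was 2.46 in control mice and 6.99 in the knockout. These ratios take the blood counts as exact. The counting intervals for blood over marrow reached down to 1.35 in control mice and 5.06 in the knockout. Dendritic cell markers, the cells best known for both genes, took 0.0104% to 0.0201% of counts in blood and 0.00808% to 0.00921% in marrow, and their part in these levels was not tested.

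Ccl24 had 3 to 19 counts per library in every group, with 28 in control bone marrow, 18 in knockout bone marrow, 29 in control blood and 15 in knockout blood. The ratio of knockout to control was 0.469 in blood (95% counting interval 0.234 to 0.904) and 0.656 in marrow (0.342 to 1.23), and the CPM of single libraries overlapped between the genotypes in both tissues. Cxcl10 was at 0.558, 1.35 and 0.846 CPM in control bone marrow and 0.585, 1.23 and 0.525 in knockout bone marrow. Blood was split, with 2.78 and 2.15 in replicate 1 of the control and the knockout and 0.264, 0.342, 0.763 and 0.299 in the other libraries. Its log2 fold changes of 0.30 (SE 0.87, adjusted p = 0.816) and 0.53 (SE 0.69, adjusted p = 0.557) rested on the replicate 1 libraries, the pair with the most B cell marker counts, and were -1.58 and -0.48 without them.

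**Figure D3:**
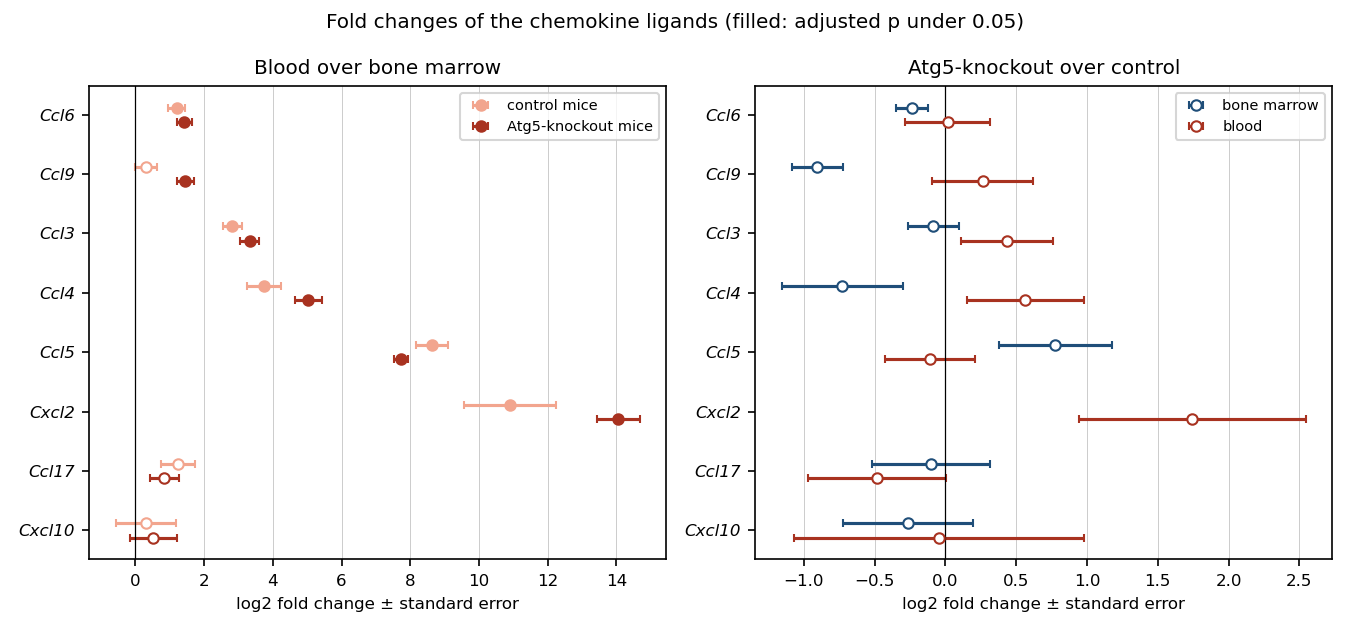
Log2 fold changes ± standard error of the 8 members tested, for blood over bone marrow (left, control and Atg5-knockout mice) and for Atg5-knockout over control (right, bone marrow and blood); filled points have an adjusted p under 0.05. On the left, the estimates run from 0.30 for Cxcl10 to 14.1 for Cxcl2, and on the right no point is filled.

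Other genes of the chemokine system were described from lists. Of 28 further chemokine ligands, 9 had no count in any library, 6 had 1 to 30 counts in all and 8 passed the filter in each tissue comparison. In control mice 5 rose in blood and 1 fell, beside 16.2% and 18% of all genes. Of those called, Ccl2, Cxcl3 and Cxcl16 passed the filter through blood alone and Cxcl12 through marrow alone. These counts therefore do not measure a rise of the list. Cxcl3, which is next of kin to Cxcl2, had 1 count in control marrow and 308 in control blood, a ratio of 454 (95% counting interval 80.9 to 17995), and 1 and 962 in the knockout. Ccl2, a monocyte attractant, had 19 counts in control marrow and 573 in control blood, and 16 and 433 in the knockout. Its log2 fold changes were 5.62 (SE 0.92) in the control and 5.14 (SE 0.49) in the knockout. The platelet chemokine Ppbp rose by 5.26 and 1.35. Platelet markers, Ppbp among them, took 0.00956% to 0.0289% of counts in control blood and 0.00664% to 0.00756% in knockout blood, against 0.0168% to 0.0204% in control marrow and 0.0190% to 0.0234% in knockout marrow. Cxcl12, made by marrow stromal cells, fell: 136 counts in control marrow against 2 in blood, a ratio of 0.0217 (0.0026 to 0.0798). In the knockout it had 222 against 0, a ratio of 0 (0 to 0.0220). In the knockout 4 rose and 1 fell, beside 23.5% and 24.1% of all genes. Ccl2, Cxcl3, Cxcl16 and Cxcl12 again passed the filter through 1 tissue alone.

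Receptor genes of the members were followed where they passed the filter on low counts. Ccrl2, an atypical chemokine receptor that does not signal in the classical way, rose by 4.32 (SE 0.46, adjusted p = 0.0002) in control and 5.06 (SE 0.22) in knockout blood on the log2 scale. Ccr3, the eotaxin receptor, rose by 0.66 (SE 0.20, adjusted p = 0.0350) and 1.09 (SE 0.24, adjusted p = 0.0053). Ccr1, the receptor of Ccl6 and Ccl9, was at 287 ± 8.14 CPM (SD, n = 3) in control marrow, 252 ± 31.2 in knockout marrow, 212 ± 89.4 in control blood and 152 ± 37.4 in knockout blood. Its log2 fold change in blood was -0.42 (SE 0.27, adjusted p = 0.266) in the control and it fell by 0.67 (SE 0.19, adjusted p = 0.0184) in the knockout. For Cxcr2 and Cxcr3 the log2 fold changes were -0.59 and 0.43 in the control and 0.42 and 1.14 in the knockout, and none of these passed.

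NF-kB is known to drive Cxcl2, Ccl3, Ccl4 and Ccl5 in many leukocytes, and its targets include its own inhibitors. A list of 10 NF-kB feedback genes, all tested, held inhibitors and also the subunit genes Nfkb1, Nfkb2 and Relb. Of these 10, 7 rose and 0 fell in control blood, and 8 rose and 0 fell in knockout blood, where 16.2% and 23.5% of all genes were called higher. Their median log2 fold changes were 1.24 and 1.37. Nfkbie and Nfkb1 were called in neither genotype. Nfkbiz rose by 3.82 (SE 0.28) and 4.66 (SE 0.32), Tnfaip3, which encodes the ubiquitin-editing enzyme A20, by 2.48 (SE 0.46) and 3.27 (SE 0.15), and Relb by 2.08 (SE 0.24) and 1.80 (SE 0.21). The part of NF-kB in the differences of the members was not tested. Of 8 interferon response genes, the class to which Cxcl10 belongs, 4 rose in control blood (Oas1a, Irf7, Isg15 and Rsad2) and 6 in knockout blood (these and Ifit1 and Ifit3), and 0 fell, against the same shares of all genes. Irf7, a transcription factor of the interferon response, rose by 1.81 (SE 0.29) and 1.76 (SE 0.23).

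The study's question was what loss of Atg5 changes in eosinophils, and none of the members passed that test in either tissue. In bone marrow, 0 of 7 tested members were called, against 48 of 13781 genes, or 0.348%. At an unadjusted p under 0.05 there was 1, Ccl9, against 9.67% of genes, and the median log2 fold change was -0.24, beside 0.0029 over all genes. Knockout and control did not overlap for 1 member with the knockout lower (Ccl9) and 1 with it higher (Ccl5), where 5.51% and 9.03% of all genes did so, or 14.5% in either direction.

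Ccl9 was closest to the threshold. Its 3 knockout marrow libraries, at 454, 354 and 466 CPM, all lay below the 3 control libraries, at 565, 919 and 827. The log2 fold change was -0.90 (SE 0.18), so that the control was 1.87-fold higher, with an adjusted p of 0.0649. DESeq2 gave an adjusted p of 3.00e-05, and scaling by library size alone 0.0438, while a fit of all 12 libraries gave 1. Without control bone marrow 1, the control library nearest to the knockout, the log2 fold change was -1.10 and the adjusted p 0.00369. Ccl6, its neighbour at a distance of 9245 bases, was at -0.24 (SE 0.11, adjusted p = 0.544) with overlapping groups. The TPM ratio of Ccl6 to Ccl9 was 22.9, 14.2 and 17.2 in control marrow and 23.3, 31.6 and 28.7 in knockout marrow. In blood the ratio was 40.4, 29.5 and 31.0 in the control and 29.5, 29.5 and 23.9 in the knockout.

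**Figure D4:**
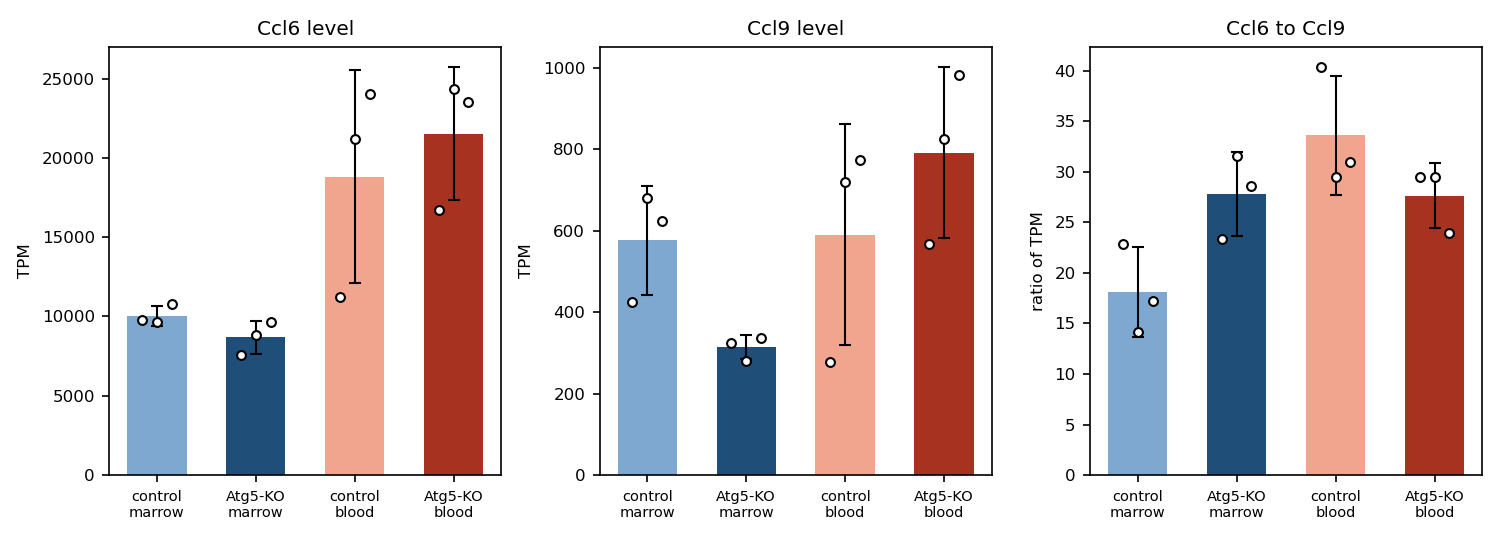
Ccl6 and Ccl9 in TPM, and their ratio, in the 4 groups. Bars are means, error bars standard deviations and points the 3 libraries of each group. Ccl9 in Atg5-knockout marrow, at 280 to 336 TPM, is below the control marrow libraries, at 426 to 679, and the ratio there is 27.8 ± 4.17 against 18.1 ± 4.43.

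Other transcripts were also compared between the genotypes in marrow, where 0.348% of all genes were called. Of the 10 eosinophil markers none was called in this comparison, nor was any of the 11 monocyte and macrophage or 10 neutrophil markers. At that share, such counts do not show that these transcripts stayed the same. Red cell markers took 0.202% to 0.722% of counts in knockout marrow and 0.138% to 0.248% in the control. Of these, 1 of 7 was called higher, against 0.145% of all genes. All 6 platelet markers had positive estimates, and for 3 the groups did not overlap, with the knockout higher (9.03% of all genes), but 0 were called. The part of red cells and platelets in the Ccl9 difference was not tested. The receptor Ccr3 was also lower in all knockout marrow libraries, with a log2 fold change of -0.49 (SE 0.15) and an adjusted p of 0.251, as was Ccr1, the receptor of Ccl9, at -0.22 (SE 0.11, adjusted p = 0.565). Ccl5 was higher in all knockout marrow libraries, by a log2 fold change of 0.78 (SE 0.40, adjusted p = 0.568), on 69 counts against 40. The values for Ccl3, Ccl4, Ccl17 and Cxcl10 were -0.086, -0.73, -0.10 and -0.27, with adjusted p from 0.629 to 0.963.

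In blood, 0 of 8 tested members were called for loss of Atg5, against 5 of 13460 genes, or 0.0371%, and 0 had an unadjusted p under 0.05, against 2.58% of genes. All 8 overlapped between the genotypes, where 7.54% of genes did not, 3.25% with the knockout higher and 4.29% with it lower. Ccl6 was nearly the same in mean, at 17796 ± 4620 CPM (SD, n = 3) in the knockout and 18022 ± 5444 in the control, with a log2 fold change of 0.015 (SE 0.30).

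Cxcl2 had the largest estimate in blood, 1.74 (SE 0.80), with an adjusted p of 1 and a range of 1.21 to 2.58 when single libraries were left out. The knockout libraries held 478, 259 and 628 CPM and the control libraries 140.3, 263 and 13.99, so that control blood 2 exceeded knockout blood 2, and control blood 3 lay far below all the others. Cxcl3 followed the same order in part, at 11.9, 8.84 and 24.0 CPM in the knockout and 10.7, 4.94 and 0.783 in the control (log2 fold change 1.48, SE 0.76). Ccrl2 was higher in every knockout library, at 104, 96.9 and 152 CPM against 75.4, 76.1 and 22.5, with a log2 fold change of 1.05 (SE 0.42) and an adjusted p of 1. Nfkbia, at 162 CPM, and Tnfaip3, at 146 CPM, were also lowest in control blood 3 among the blood libraries, and both were highest among the controls in control blood 2. The full list of 10 NF-kB feedback genes had 5 positive and 5 negative log2 fold changes between the genotypes in blood. Their median was -0.0048, and 0 were called, beside 0.0371% of all genes. With replicate 1 of both groups left out, a setting chosen after seeing the data, 0 members were called and Cxcl2 was at 1.73.

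**Figure D5:**
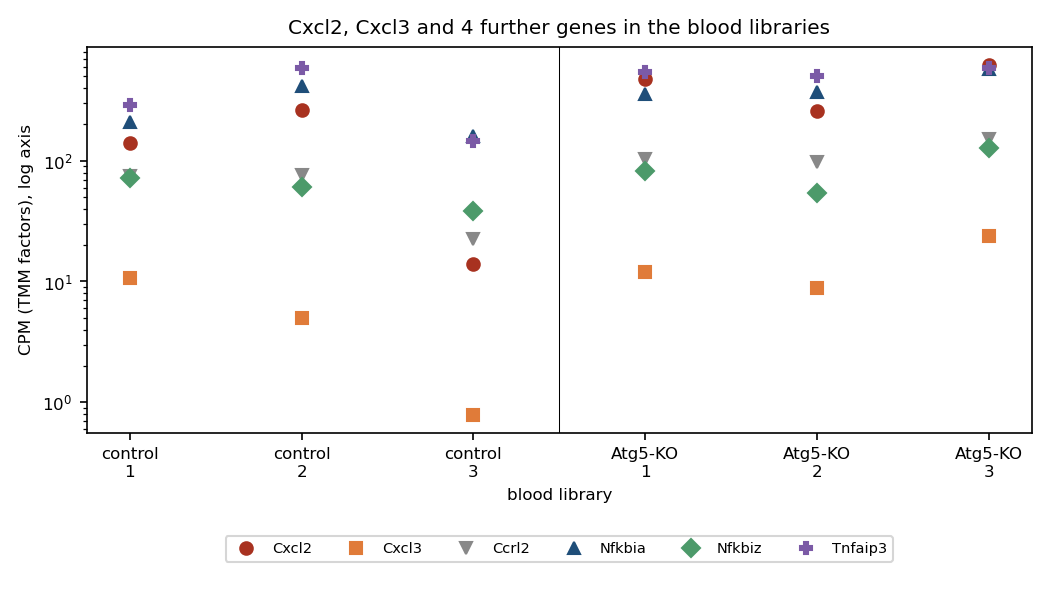
CPM (log axis) of Cxcl2, Cxcl3, Ccrl2, Nfkbia, Nfkbiz and Tnfaip3 in the 6 blood libraries, 1 marker per gene. Control blood 3 is the lowest library for all 6 genes, with Cxcl2 at 13.99 and Cxcl3 at 0.783 CPM, and knockout blood 3 is the highest for all 6.

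No other member passed between the genotypes in blood. The log2 fold changes were 0.26 for Ccl9, 0.43 for Ccl3, 0.56 for Ccl4, -0.11 for Ccl5, -0.48 for Ccl17 and -0.046 for Cxcl10, with SE from 0.32 to 1.03. With a block for replicate number, Ccl9 was at 0.30 (adjusted p = 0.660). Ccl22, below the filter, had 16 counts in knockout and 5 in control blood, a ratio of 2.90 (95% counting interval 1.02 to 10.1). Spread between libraries was larger here than in marrow: the biological coefficient of variation was 0.365 for the blood comparison and 0.146 for that in marrow.

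Whether the effect of the knockout differed between the tissues was tested over all 12 libraries. For 0 of 8 members did it pass, nor for any of 14712 genes (0%), with 740 genes, or 5.03%, at an unadjusted p under 0.05, and DESeq2 called 11 genes and 0 members. Ccl9 had the smallest p among the members, with a difference of 1.11 (SE 0.44, adjusted p = 0.942), from -0.90 in marrow and 0.26 in blood. Ccl4 was at 1.24 (SE 0.64) and Ccl5 at -0.93 (SE 0.51). Cxcl2, with 8 marrow counts in all, had a difference of 3.11 with an SE of 3.26.

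Of 14822 genes ranked by the Pearson correlation of their log2 CPM with that of Ccl6 over the 12 libraries, the 5 closest were Entpd1 (r = 0.989), Camk1 (0.988), Cd84 (0.987), AB124611 (0.987) and Abhd4 (0.987). Entpd1 encodes CD39, an enzyme that breaks down extracellular ATP, Camk1 a calcium-dependent kinase and Cd84 a receptor of the SLAM family. The libraries fall into 2 tissues, which all these genes follow, and they share depth and scaling, so the values are a description. After removal of the group means r was 0.948, 0.945, 0.963, 0.922 and 0.922. Entpd1, for one, had mean CPM of 112 in control marrow, 102 in knockout marrow, 299.8 in control blood and 282 in knockout blood.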

How the data were processed

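Per the file header, the deposited table holds raw read counts per gene (unit counts, not normalized), made by the authors with featureCounts 2.0.1 on Ensembl release 92 (GRCm38), without a strand option. The submitters' processing notes name HISAT2 2.2.1, R 4.1.0 and DESeq2 1.32.0. The methods name GRCm39 and single-end reads, whereas the header shows the paired-end switch. The gene length column of the table gave TPM. Symbols came from GENCODE by identifier (49674 of 53801).

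The members, lists and tests were chosen with earlier results of these data known. Named were all 10 members, receptors past the filter (1 is not reported here), up to 4 called genes per further list by lowest p, and the 5 genes most like Ccl6, beside markers, overlapping genes and Atg5 as checks. Cxcl3, Ccrl2, Nfkbia, Nfkbiz and Tnfaip3 were drawn by library in blood, and Ccr3 in marrow was described, after their values were seen. Counts (18885052 to 30270166 per library) were filtered with filterByExpr (at least 10 counts, 15 in all), TMM-scaled and tested in R 4.3.3 with edgeR 4.0.16 (quasi-likelihood, 6 libraries per comparison, 12 for the difference between tissues, prior count 0.125 for fold changes and 2 for the log2 CPM ranked against Ccl6), with Benjamini-Hochberg adjustment over all genes. Calls are adjusted p under 0.05. SE is the log2 fold change over the square root of F. Printed CPM used TMM factors of all 12 libraries. Alternatives used DESeq2 1.42.0, limma 3.58.1 (voom), other scalings, filters, thresholds, a replicate block and leaving out libraries. Scripts were tested on simulated data. Same-numbered blood libraries deviated from their group means together (correlations 0.50, 0.21 and 0.30). No pairing or batch of the blood libraries was given in the sources used here, so a pairing by number rests on these correlations alone. In marrow (-0.15 to 0.0032) and between tissues, same-numbered libraries did not all deviate together.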

Additional observations from a re-analysis of the deposited data

How the results depend on the processing

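The call of Ccl6, Ccl3, Ccl4 and Ccl5 as higher in blood held in both genotypes under the 14 other fits of each, as did that of Cxcl2 and Ccl9 in the knockout. The threshold of a log2 fold change beyond 2, applied to the same fit, leaves out Ccl6 in both genotypes and Ccl9 in the knockout. In control mice Cxcl2 was lost with limma-voom (10.3, adjusted p = 0.0513) and held under the other 13. The number of members called ran from 4 to 7 in control mice and from 4 to 7 in the knockout. The fold threshold gave 4 in both (Ccl3, Ccl4, Ccl5 and Cxcl2), and limma-voom a different 4 in control mice (Ccl6, Ccl3, Ccl4 and Ccl5). For loss of Atg5 in marrow, where 0 members were called, DESeq2, library size alone and no filter on low counts each called 1, Ccl9, and leaving out single libraries called 0 to 1, the 1 being Ccl9 without control bone marrow 1. In blood no filter called 1, Cxcl2 (1.71, adjusted p = 0.0456).

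Estimates that changed sign were all of uncalled differences, and the cause was not tested. In marrow for loss of Atg5 they were Ccl17 with limma-voom (0.015), and leaving out single libraries gave -0.19 to 0.043 for Ccl3, -0.42 to 0.21 for Ccl17 and -0.75 to 0.14 for Cxcl10. In blood they were Ccl6 with no filter (-0.025) or 12 libraries (-0.0052), Ccl5 with limma-voom (0.0083), and Cxcl10 with limma-voom (0.55) or library size alone (0.12). Leaving out single blood libraries gave -0.19 to 0.23 for Ccl6, -0.028 to 0.52 for Ccl9, -0.33 to 0.41 for Ccl5 and -1.07 to 1.84 for Cxcl10, with Ccl6, Ccl9, Ccl5 and Cxcl10 each turning without control blood 1 and Ccl6 and Cxcl10 also without knockout blood 2 or 3, and Ccl5 was 0.35 without replicate 1 of both groups, a setting chosen after seeing the data. Between tissues only Cxcl10 turned, in control mice with limma-voom (-0.47) and library size alone (-0.017). Leaving out single libraries gave -1.58 to 0.79 in the control and -0.48 to 0.99 in the knockout. For the difference between tissues it gave -0.0062 to 0.43 for Ccl6 and -0.78 to 2.08 for Cxcl10.

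The replicate block changed no member's call. In blood, where same-numbered libraries deviated together, Cxcl2 was at 2.22 (adjusted p = 0.644) under the block. Ccl5 was at 0.0094 and Cxcl10 at 0.28, and 10 genes were called in place of 5. In marrow 23 genes were called under the block in place of 48, and Ccl9 was at -0.88 (adjusted p = 0.187). Between tissues in control mice Cxcl10 was at -0.39 under the replicate block. Over all genes, DESeq2 called 192 in marrow and 23 in blood, no filter 420 and 77, and a 12-library fit 12 and 16. The tissue test in control mice called 2627 to 5926 genes when single libraries were left out, that in marrow 18 to 219 (219 without control bone marrow 1) and that in blood 2 to 6. For the difference between tissues, 0 genes became 11 with DESeq2 and 119 with no filter. Ccl22 and Ccl24 were too shallow to pass the filter and were not tested in any 6-library comparison that used it.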
